A study of Mus musculus with 12 samples.

Results

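Gene expression arrays and qPCR are often scaled to genes that are thought to be even across samples. The signals of 9 such reference genes, Gapdh, Actb, Rpl30, Ipo8, Tbp, Ppia, B2m, Ywhaz and Pgk1, were followed along the mouse cochlea. They were chosen by name, as all probes for expressed sequence whose gene name in the array files equals one of these symbols, and all 9 symbols were found. The 9 genes were covered by 73 of 165865 probes and made up 9 of 19505 genes. Total RNA came from 3 cochlear turns, named apex, middle and base, of C57BL/6 male mice aged 6 weeks, and the labels give no mutation or treatment for any group. Each turn had 4 arrays, and the methods name 4 mice in all, so that the turns came from the same animals as far as the sources say. The labels do not say which arrays share a mouse, and the comparisons therefore treat the 12 arrays as independent. A dissected turn held the organ of Corti, the spiral ganglion and the lateral wall together. In such bulk tissue, fewer cells of a type and less RNA per cell cannot be told apart. No slide held arrays of more than 1 turn and no turn spanned more than 1 slide, so that slide and turn cannot be told apart.

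The reference genes serve basic functions of nearly every cell. Gapdh and Pgk1 encode glycolytic enzymes, Actb encodes the cytoplasmic beta-actin of the cytoskeleton, and Rpl30 encodes a protein of the large ribosomal subunit. Tbp binds the TATA box as part of the general transcription factor TFIID, and Ipo8 carries proteins into the nucleus. Ppia (cyclophilin A) helps proteins fold by turning prolyl bonds, Ywhaz is a 14-3-3 adaptor that binds phosphorylated proteins, and B2m is the light chain of MHC class I molecules. The cochlea is ordered along its length, with high tones sensed at the base and low tones at the apex. A reference gene that differs between turns shifts every gene that is measured against it.

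The array reads each gene through designed 60-base probes, and a few are shown because the results below rest on what they bind. Each is given 5′ to 3′ in the sense of the transcript, named by gene and by the start of the probe in its transcript, with its position on mm9.
Of the 6 Gapdh probes, 5 are listed on chromosome 6 and 1 on chromosome 8. A probe from each place is shown, at chr6:125112979-125113038 and at chr8:94212520-94212579, both on the minus strand.
Gapdh 391: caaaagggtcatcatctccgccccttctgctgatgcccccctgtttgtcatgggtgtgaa
Gapdh 740: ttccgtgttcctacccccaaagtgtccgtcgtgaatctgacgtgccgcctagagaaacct
All 13 Pgk1 probes are listed within chr3:57906511-57908164, although RefSeq (GRCm38.p6) places Pgk1 on chromosome X.
Another 6 genes are shown by 1 probe each, to give the sequence that was read: Ywhaz, by the probe that differed most between apex and base (chr15:36720668-36720727, minus strand), Tbp (chr17:15650518-15650577, plus strand), Ppia (chr11:6319229-6319288, plus strand), B2m (chr2:121976755-121976814, plus strand), Ipo8 (chr6:148750040-148750099, minus strand) and Rpl30 (chr15:34371013-34371072, minus strand).
Ywhaz 607: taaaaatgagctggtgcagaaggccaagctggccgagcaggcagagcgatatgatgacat
Tbp 787: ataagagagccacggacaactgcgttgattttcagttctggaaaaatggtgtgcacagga
Ppia 343: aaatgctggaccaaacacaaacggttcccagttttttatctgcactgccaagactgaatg
B2m 264: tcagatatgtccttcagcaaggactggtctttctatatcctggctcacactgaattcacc
Ipo8 1467: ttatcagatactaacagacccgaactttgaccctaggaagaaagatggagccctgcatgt
Rpl30 338: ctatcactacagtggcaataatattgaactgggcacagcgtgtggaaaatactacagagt

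Each probe is assigned to a transcript of its gene, but the listed positions of the Pgk1 probes and of 1 Gapdh probe are on other chromosomes than these genes. Ipo8 had 25 probes over chr6:148719213-148779745, Tbp 7 over chr17:15640012-15654309, Actb 5 over chr5:143665422-143667370, Ywhaz 5 over chr15:36701761-36720727, and Rpl30, Ppia and B2m had 4 each, over chr15:34370264-34372890, chr11:6315904-6319796 and chr2:121973481-121978818. On the array, the Pgk1 probes lie between those of Pfn2 and Tsc22d2, where RefSeq (GRCm38.p6) lists 3 pseudogenes, Gm18867, Gm5537 and Gm20128. The Gapdh probe on chromosome 8 lies between Fto and Irx3, where it lists Gm9619 and Gm2875 as pseudogenes. RNA of near-identical copies of Gapdh and Pgk1 would bind the same probes, so the signals of both genes are uncertain to that extent. The same holds for Actb and the closely similar Actg1.

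The values are fluorescence signals scaled so that the 75th percentile of each array equals the median of the 12 arrays, averaged over the probes of a gene on the log2 scale. Before scaling, this percentile ran from 534 to 721.6, and between 77.4% and 81.4% of the spots of an array were well above background. The 9 genes took up 75 spots, each of which was well above background on the 12 arrays, and 0 were saturated. Some cell type marker lists differed between turns, with 8 of 8 hair cell genes and 5 of 5 Schwann cell genes called higher in apex than base, and with 7 of 8 stria vascularis genes, 5 of 5 spiral ligament genes and 7 of 7 macrophage genes higher in the base. Over all genes these shares were 17.6% and 21.6%. Other lists were mixed, with 2 higher in apex and 3 in base of 6 supporting cell genes, 1 and 4 of 6 endothelial and mural, 0 and 3 of 7 bone and cartilage, and 0 and 0 of 5 red blood cell genes. The counts moved with the scaling, to 0 Schwann cell genes with spike-in probes and to 1 macrophage gene when scaled to Actb. The shares over all genes moved as well.

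Of the 9 reference genes, 5 differed between apex and base, against 39.2% of all genes (limma, Benjamini-Hochberg adjusted p under 0.05 over all genes). Actb, Ppia, Pgk1 and B2m were higher in the base, and Ywhaz was higher in the apex. Higher signal in the base was called for 21.6% of all genes and higher signal in the apex for 17.6%. The same 5 genes were those whose apex and base arrays did not overlap, a pattern that 38.3% of all genes had. Gapdh, Rpl30, Ipo8 and Tbp did not pass the test. Over all 3 comparisons, too, 5 of 9 were called at least once, against 43.4% of all genes. The same 5 genes also passed the F test over the 3 turns, as did 38.7% of all genes, and none of the 9 had the 2-fold difference between turns that the study also asked for, against 4.69% of all genes that met both. The 95% interval lay within 2-fold in all 3 comparisons for all 9 genes, as it did for 85.2% of all genes. It lay within 0.5 log2 units in all 3 comparisons for 5 of 9, namely Gapdh, Rpl30, Ipo8, Tbp and Ywhaz, against 50.1% of all genes.

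**Figure D1:**
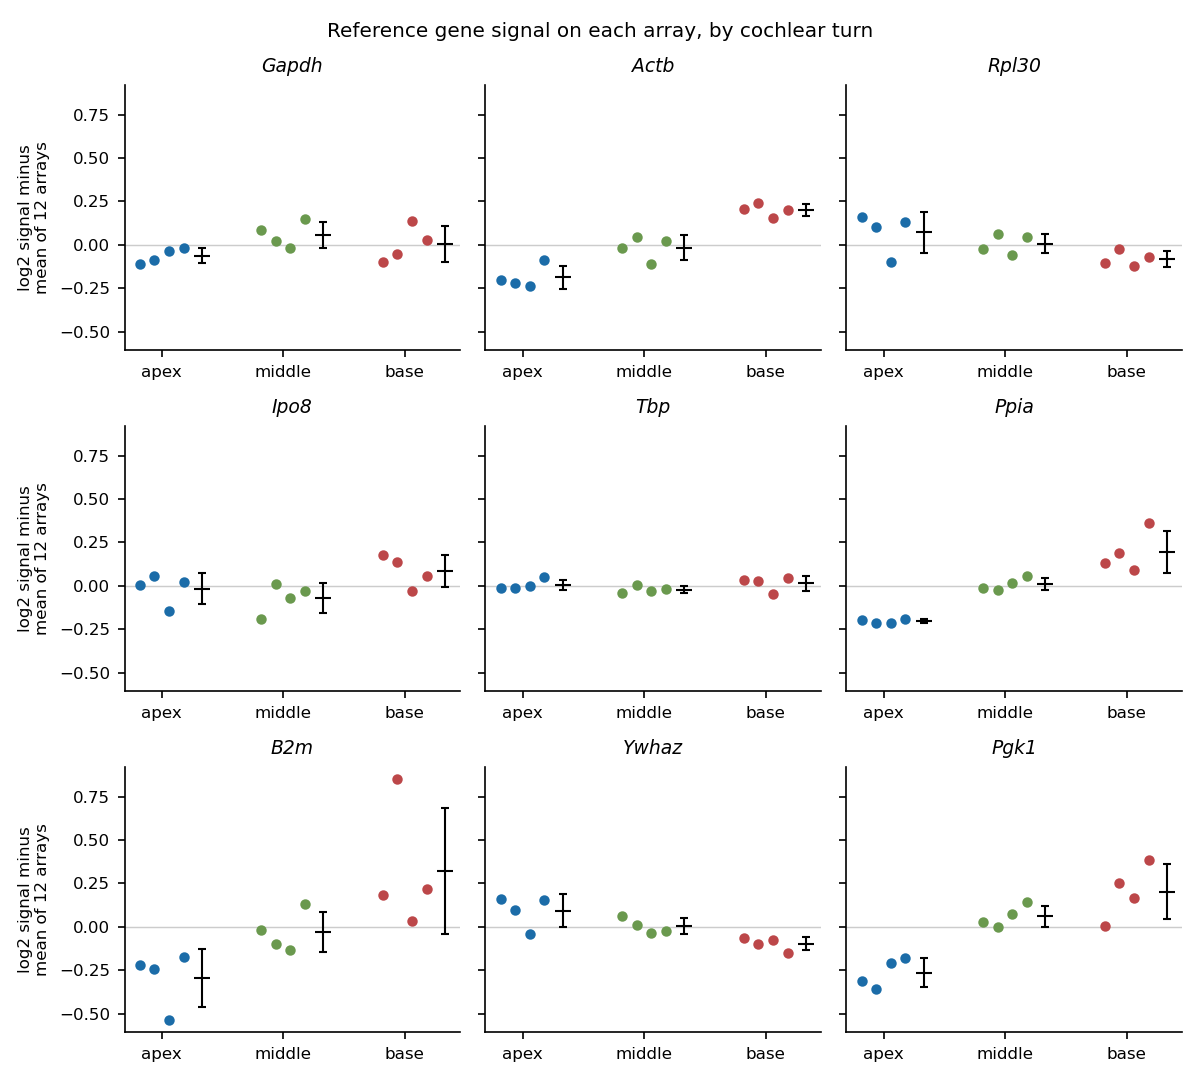
Log2 signal of the 9 reference genes on each of the 12 arrays, drawn as the difference from the gene's mean over the arrays, with points for arrays and with bars for the mean and SD of the 4 arrays of a turn. Actb, Ppia, Pgk1 and B2m stepped up from apex to base, Ywhaz stepped down, and Tbp stayed within a narrow band, from 234.2 to 250.7 in linear signal.

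Tbp, the TATA-binding protein, had a scaled signal of 240.0, 240.5, 241.7 and 250.7 on the 4 apex arrays. It was 235.1, 242.8, 236.8 and 239.4 in the middle turn and 248.2, 246.5, 234.2 and 249.5 in the base. The turns overlapped throughout. The log2 difference between apex and base was -0.01 with a 95% interval from -0.10 to 0.08 (adjusted p = 0.9). Its SD over the 12 arrays was 0.0331 log2 units, and only 0.0666% of all genes had a smaller one.

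Gapdh, which converts glyceraldehyde 3-phosphate in glycolysis, measured 64485, 65562, 67922 and 68646 in apical samples, 73654, 70605, 68570 and 77157 in middle samples and 64881, 67089, 76428 and 70798 in basal samples. The basal samples spread over nearly the whole range of the others. Apex and base differed by -0.06 on the log2 scale (95% interval from -0.20 to 0.07, adjusted p = 0.46). Apex and middle turn differed by -0.12 (interval from -0.25 to 0.01, adjusted p = 0.19).

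Ipo8, the importin, stood at 366.9, 380.0, 330.8 and 370.7 in apical samples, at 320.4, 367.7, 348.8 and 358.0 in middle samples and at 413.5, 402.3, 358.7 and 380.8 in basal samples. Apex array 3 and middle array 1 were the lowest and all turns overlapped. Its log2 difference was -0.10 between apex and base (adjusted p = 0.26) and -0.16 between middle turn and base (interval from -0.30 to -0.01, adjusted p = 0.12).

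Rpl30, the ribosomal protein gene, measured 16599, 15945, 13864 and 16248 in apical samples, 14608, 15497, 14281 and 15332 in middle samples and 13812, 14622, 13633 and 14153 in basal samples. All but the third apex array were above the base arrays. The log2 difference between apex and base was 0.15 (interval from 0.02 to 0.29, adjusted p = 0.071), and without apex array 3 it was 0.21 and passed (adjusted p = 0.0083).

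Ywhaz, the 14-3-3 adaptor, showed 4292, 4112, 3725 and 4271 in apical samples, 4013, 3861, 3737 and 3773 in middle samples and 3674, 3582, 3642 and 3461 in basal samples. The apex lay above the base on all arrays, with apex array 3 closest to it. The apex exceeded the base by 0.19 on the log2 scale, or 1.14-fold (SE 0.0540, adjusted p = 0.016). The difference lost the call when the median of the probes replaced their mean, at 0.08 (adjusted p = 0.44).

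Actb, the beta-actin gene, measured 54945, 54285, 53593 and 59361 in apical samples, 62234, 65090, 58385 and 64226 in middle samples and 72872, 74615, 70136 and 72682 in basal samples. The base arrays all lay above those of the other turns, while the fourth apex array overlapped the middle turn. Means were 55546 ± 2602, 62484 ± 2983 and 72576 ± 1845 (SD, n = 4) from apex to base. The base exceeded the apex 1.31-fold (log2 difference -0.39, SE 0.0516, adjusted p = 0.00019) and the middle turn 1.16-fold (adjusted p = 0.014). Middle turn against base was called for 20.9% of all genes, with higher signal in the base for 9.23% and in the middle turn for 11.6%, and among the 9 reference genes for Actb and Ppia, both higher in the base. Middle and basal samples did not overlap for Actb, Ppia and Ywhaz, as for 24.1% of all genes.

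Ppia, cyclophilin A, measured 66386, 65668, 65546 and 66701 in apical samples, 75453, 74972, 76985 and 79164 in middle samples and 83531, 86713, 80942 and 97869 in basal samples. The 3 turns did not overlap on any array. The base exceeded the apex 1.32-fold (log2 difference -0.40, SE 0.0579, adjusted p = 0.00033). The steps from apex to middle turn (-0.21, adjusted p = 0.038) and from middle turn to base (-0.18, adjusted p = 0.045) were near the threshold. Leaving out an array ended the call in 8 of 12 cases for the former and in 11 of 12 for the latter, with adjusted p up to 0.1 and 0.102.

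Pgk1, phosphoglycerate kinase of glycolysis, showed 10374, 10048, 11155 and 11347 in apical samples, 13138, 12873, 13549 and 14186 in middle samples and 12923, 15311, 14428 and 16836 in basal samples. The apex lay below both other turns on all arrays, and the base overlapped the middle turn. The base exceeded the apex 1.38-fold (log2 difference -0.47, SE 0.0783, adjusted p = 0.00079) and the middle turn exceeded the apex 1.25-fold (adjusted p = 0.024). Apex against middle turn was called for 12% of all genes, and among the 9 reference genes for Pgk1 and Ppia, both higher in the middle turn. Higher signal in the middle turn was called for 7.61% of all genes and higher signal in the apex for 4.42%. Apical and middle samples did not overlap for Ppia, Pgk1 and B2m, as for 20.8% of all genes. The Pgk1 call against the middle turn was lost without apex array 1, apex array 2 or middle array 4 (adjusted p of 0.0633, 0.0772 and 0.071).

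B2m, the light chain of MHC class I, measured 21281, 20899, 17040 and 21951 in apical samples, 24396, 23139, 22551 and 27113 in middle samples and 28075, 44697, 25326 and 28779 in basal samples. Base array 2 stood far above the other base arrays. The base exceeded the apex 1.53-fold (log2 difference -0.61, SE 0.157, adjusted p = 0.0091), and without base array 2 the difference was -0.44 (adjusted p = 0.0073). The 7 macrophage genes moved the same way. Their summed signal ran from 2831 to 3508 in apical samples, from 3138 to 3410 in middle samples and from 4026 to 5053 in basal samples, all 7 were well above background, and on base array 2 the mean log2 level of the list was the highest of the 12 arrays, at 0.46 above its average. Base array 2 was also extreme in other marker lists. It was the highest for stria vascularis (0.38) and the lowest for hair cells (-1.35), spiral ganglion neurons (-1.71) and Schwann cells (-0.84). In the remaining lists it was at neither end. The part of macrophages or of other cells in the B2m result was not tested.

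**Figure D2:**
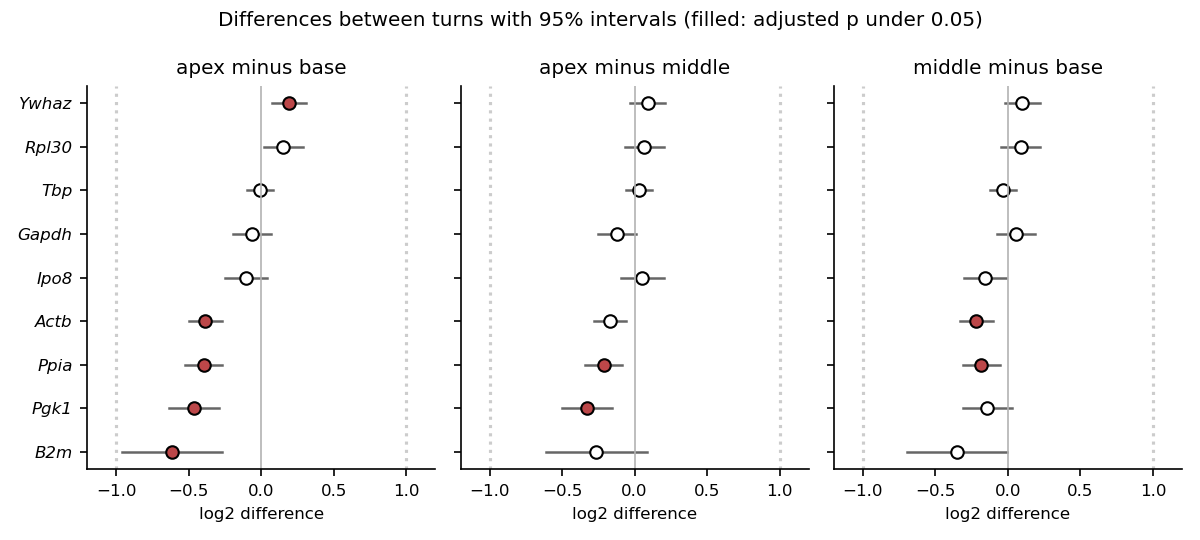
Log2 differences of the 9 reference genes between turns with their 95% intervals from limma, apex minus base, apex minus middle and middle minus base, with filled points where the adjusted p was under 0.05 and dotted lines at 2-fold. All intervals lie inside the dotted lines, and 5 genes are filled in the comparison of apex and base against 2 in each of the others.

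The spread between arrays separated 5 steadier genes from 4 others. Next to Tbp, the SD over the 12 arrays was 0.0867 log2 units for Gapdh, 0.0973 for Rpl30, 0.0999 for Ywhaz and 0.105 for Ipo8. It was 0.174 for Actb, 0.182 for Ppia, 0.227 for Pgk1 and 0.341 for B2m, beside a median of 0.189 over all genes. Most of the spread of Actb lay between turns, where 90.4% of its variance was found, as was 87.0% for Ppia and 80.8% for Pgk1. Within a turn Actb was among the steadier genes, with a pooled SD of 0.0596 that only 7.50% of all genes undercut. B2m was variable in both ways, with a pooled SD within turns of 0.240, above that of 79.1% of all genes.

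A ratio of 2 genes on the same array does not change when the array is scaled by a constant, though quantile normalization can change it. The 36 pairs fell into blocks. The steadiest ratio was that of Rpl30 to Ywhaz, with an SD of 0.0572 log2 units over the 12 arrays. Actb to Ppia (0.0800), Ppia to Pgk1 (0.0816) and Ipo8 to Tbp (0.0866) came next. The least steady was B2m to Ywhaz, at 0.402, with a 1.75-fold difference between apex and base. Apex and base arrays did not overlap for 21 of 36 ratios. These held 19 of the 20 pairs of a gene from Actb, Ppia, B2m and Pgk1 with one of the other genes, none of the 6 pairs within those 4, and 2 of the 10 pairs within the other 5. The exception among the 20 was Ipo8 to Pgk1. The 4 and the 5 were told apart by these same arrays, so the counts describe the pattern and do not test it. The share of ratios without overlap over pairs of all genes was not computed, so whether these counts are unusual is not known.

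Averaged over the partners, as in the geNorm measure M (lower is steadier), Tbp had 0.163, Ipo8 0.174, Actb 0.174, Ppia 0.180 and Gapdh 0.181. Rpl30 had 0.200, Pgk1 0.213, Ywhaz 0.214 and B2m 0.305. Actb, whose level varied more than those of Gapdh and Rpl30, had a lower M than both, and the SD of its ratio was 0.0800 to Ppia and 0.124 to Pgk1. Among the qPCR control genes of the study, Gapdh, Actb, Rpl30 and Ipo8 are in this set. With only these 4 as partners the order changed, and Actb had the highest M, at 0.185. Rpl30 then had 0.174, Gapdh 0.160 and Ipo8 0.150. The mean log2 signal of these 4 ran from 13.47 to 13.61 in apical samples, from 13.54 to 13.65 in middle samples and from 13.64 to 13.68 in basal samples, so that apex and base did not overlap for the mean either. The mean of all 9 genes was 13.09 ± 0.0563 in apical samples, 13.19 ± 0.0398 in middle samples and 13.28 ± 0.0625 in basal samples (SD, n = 4).

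**Figure D3:**
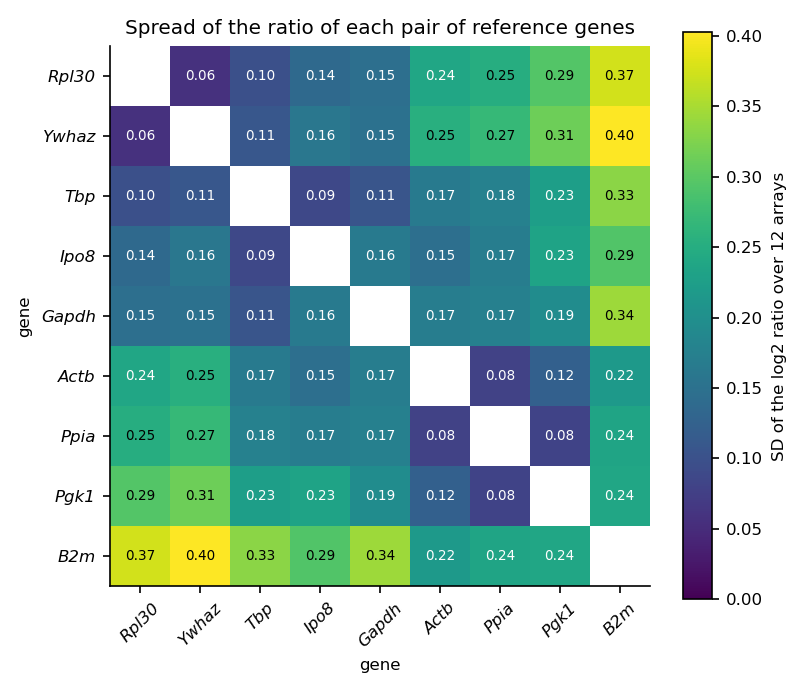
SD over the 12 arrays of the log2 ratio of each pair of the 9 reference genes, with genes on both axes and the SD as colour and number. Rpl30 with Ywhaz, Actb with Ppia and Ppia with Pgk1 are the steadiest pairs, and the ratios of B2m to Ywhaz and Rpl30 spread most.

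The exon probes of a gene agreed for some genes and parted for others. All 5 Actb probes, all 4 Ppia probes, all 4 B2m probes and all 13 Pgk1 probes were higher in the base than in the apex in the fit over all probes, in which 34.4% of probes were called. The B2m probes spanned only 0.0397 log2 units, from -0.64 to -0.60. The Pgk1 probes ranged from -0.56 to -0.36. Of the 4 Rpl30 probes, 2 were higher in the apex, at 0.23 (position 90, adjusted p = 0.02) and 0.17 (position 338, adjusted p = 0.042), and the others were at 0.12 and 0.09 and not called, as the mean of the 4 was not. None of the 6 Gapdh probes was called, with differences from -0.09 to -0.04, 0 at an unadjusted p under 0.05 and 0 with an unmoderated fit. The Gapdh probe listed on chromosome 8 gave -0.09 and the one shown from chromosome 6 gave -0.08. The 5 Actb probes ranged from -0.44 to -0.31, and the 4 Ppia probes ranged from -0.47 to -0.33. Between apex and middle turn, 7 of 13 Pgk1 probes were higher in the middle turn and 1 Tbp probe was higher in the apex, against 5.9% of all probes called. Between middle turn and base, 3 of 5 Actb probes and 2 of 25 Ipo8 probes were higher in the base, against 13.8%.

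Tbp, Ywhaz and Ipo8 differed along their transcripts. The Tbp probe nearest the 5′ end was higher in the apex by 0.26 (adjusted p = 0.048) and the one nearest the 3′ end was higher in the base, at -0.22 (adjusted p = 0.02), so that its even gene-level signal averages opposite differences. The differences of the 5 Ywhaz probes went down in order from 0.40 at position 607, the probe shown above, through 0.26, 0.19 and 0.14 to -0.04 at position 1992. Of the 25 Ipo8 probes, 24 were not called and the last, at 5292, was higher in the base (-0.50, adjusted p = 0.00015). A shift in this direction was common: over the 10264 genes with at least 4 bright probes, well above background throughout, the last probe minus the first had a median of -0.17 (quartiles -0.36 and 0.03) and was below 0 in 71.7%. With only the last probe of each gene, Ywhaz stood at -0.04 and was not called, while Tbp (-0.22, adjusted p = 0.0152) and Ipo8 (adjusted p = 8.59e-05) were called higher in the base. For Actb (0.08), Ppia (0.14), Gapdh (0.03) and B2m (0.02) the last probe minus the first was above 0. RNA quality was not given per sample in the sources used here.

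**Figure D4:**
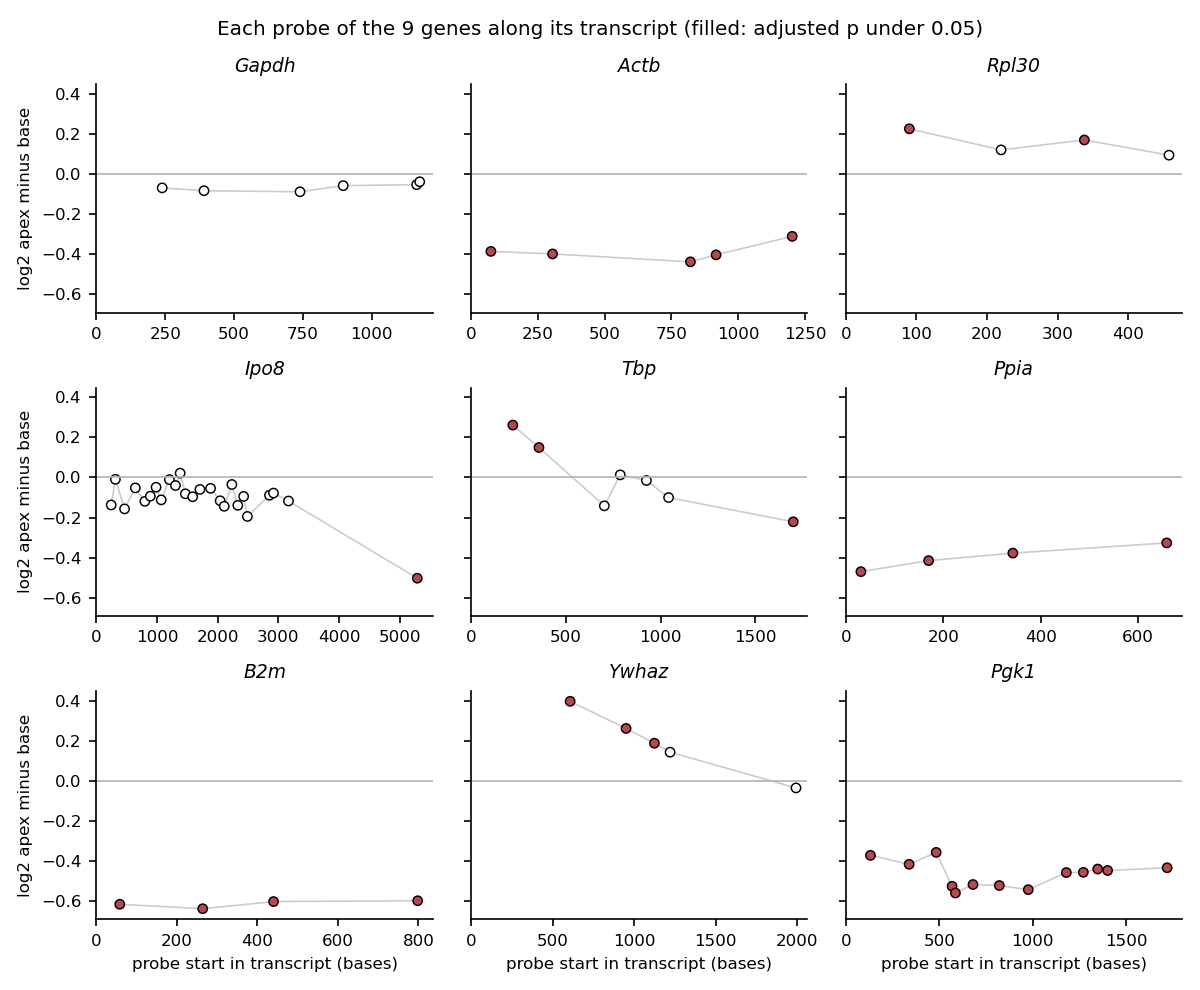
Log2 difference between apex and base of each of the 73 probes against its start in the transcript in bases, 1 panel a gene, filled where the adjusted p over all probes was under 0.05. Ywhaz and Tbp slope down towards the 3′ end, Ipo8 drops at its last probe, and the probes of B2m and Gapdh lie level.

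Scaling moved all genes together and so changed which reference genes were called. With 75th percentile scaling, the median log2 difference of all genes between apex and base was -0.04, and 44.9% of the called genes were higher in the apex. Scaled to Actb alone, the median of all genes moved by 0.39, 94.6% of the called genes were higher in the apex, and Gapdh (0.32), Ipo8 (0.28), Tbp (0.38), Rpl30 (0.54) and Ywhaz (0.58) were called higher in the apex, while Ppia, Pgk1 and B2m were not called. Scaled to Gapdh alone the shift was 0.06 and the share higher in the apex 58.7%. The mean of the 4 qPCR control genes gave 0.10 and 62.8%, and the mean of all 9 genes 0.19 and 77.2%. Median scaling gave -0.12 and 26.5%, and 7 of the 9 genes were then called higher in the base, as were 6283 of 19505 genes.

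With spike-in probes as the yardstick, the genes moved in the same direction as with the median, and furthest of the 10 scalings. These control probes bind RNA that is meant to be added in equal amount to each labeling reaction, and 8 of 10 were usable, being bright and not saturated throughout. Relative to the 75th percentile they differed between apex and base by 0.12 to 0.60 log2 units. Scaled to them, the median of all genes moved by -0.49, 5.13% of the called genes were higher in the apex, and all 9 reference genes were called higher in the base, from -0.30 for Ywhaz to -1.10 for B2m. Higher signal in the base was then called for 14334 of 19505 genes. The spike-in probe with the strongest signal, at a mean of 18.78 on the log2 scale, differed least (0.12), and the next, at 17.55, differed by 0.36, against 0.54 to 0.60 for the other 6. The brightest member probe reached 18.09 on an array, and the part of this in the differences of bright probes was not tested. Over the scalings, the share of called genes with more signal in apex than middle turn ran from 2.69% to 93.5% (36.7% with 75th percentile scaling), and the share with more in middle turn than base from 10.3% to 94.6% (55.8%).

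Scaling by a constant for each array adds the same amount to the log2 difference of every gene and so keeps their order. Quantile normalization, which does not, brought Gapdh to 0.18 (adjusted p = 0.0367), Rpl30 to 0.36 (adjusted p = 0.000187) and Ywhaz to 0.38 (adjusted p = 0.000213), all higher in the apex. It left smaller differences for the genes higher in the base, with Actb at -0.12 (adjusted p = 0.0215), Ppia at -0.14 (adjusted p = 0.0357), Pgk1 at -0.23 (adjusted p = 0.0168) and B2m at -0.36 (adjusted p = 0.0612). The counts of alternatives that follow hold some that could not move a difference. The deposited value table held the same intensities, and leaving out 1 Gapdh probe bears on Gapdh alone. Others left out only 1 array at a time. Between apex and base, Actb was called higher in the base in all 35 alternatives that gave it a value, with log2 differences from -0.87 to -0.12. Ppia and B2m were called so in 34 of 36 and Pgk1 in 35 of 36. Ywhaz was called in 32 of 36, in 31 of them higher in the apex and with spike-in scaling higher in the base. Rpl30 was called in 9 of 36, Tbp in 6, Ipo8 in 5 and Gapdh in 4 of 35. Pgk1 was called between apex and middle turn in 26 of 36 alternatives and Ppia in 19, and between middle turn and base Actb was called in 31 of 35 and Ppia in 14 of 36.

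**Figure D5:**
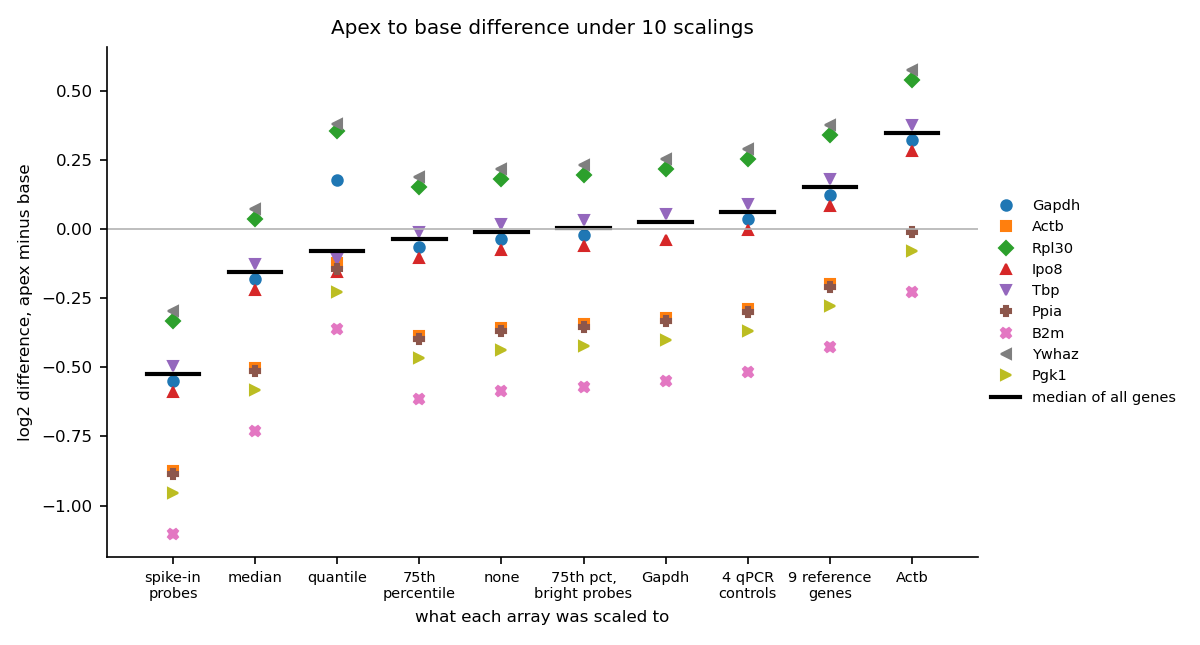
Log2 difference between apex and base of the 9 reference genes under 10 ways of scaling the arrays, with the median of all genes as a black bar. From spike-in probes to Actb the bar moved from -0.52 to 0.35, and the genes kept their distances under all but quantile normalization.

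Counts of called family members are to be read against the calls over all genes under the same scaling, and both moved with it. In the main processing, 17.6% of all genes had a call with more signal in the apex and 21.6% with more in the base. Of 19505 genes, Actb scaling called 12527 with more in the apex and 716 with more in the base. Spike-in scaling called 775 and 14334, median scaling 2270 and 6283, and quantile normalization 2920 and 4992. The 9 reference genes gave 6470 and 1907, and the 4 qPCR controls 4683 and 2772. With 75th percentile scaling, none of the 24 large ribosomal subunit genes, Rpl30 among them, was called between apex and base with limma (4 at an unadjusted p under 0.05, 0 with an unmoderated fit), and their differences ran from -0.13 to 0.20 with a median of 0.05, beside -0.04 over all genes. That median was below 0 (down to -0.44) with median and spike-in scaling and as high as 0.44 when scaled to Actb. The count of 0 held with no scaling and with Gapdh, while 22 genes were called higher in the apex with quantile normalization, 21 with the 9 reference genes, 14 with the 4 qPCR controls, 4 with bright probes and 24 with Actb, and 23 were called higher in the base with spike-in scaling and 2 with median scaling. Of 18 importin beta family genes, 5 had more signal in the apex and 1 in the base (median 0.08). Median scaling called 1 and 2, spike-in scaling 0 and 17, and Actb 17 and 0, with medians from -0.41 to 0.46. Xpo1, the main exporter of proteins from the nucleus, led the former (0.39, adjusted p = 0.00012) with Ipo5 (0.24, adjusted p = 0.002), and Ipo13 was higher in the base (-0.32, adjusted p = 0.0038).

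Of 17 glycolytic genes, Gapdh and Pgk1 among them, 10 were higher in the base and 3 in the apex, with a median of -0.29. Ldha, which makes lactate from pyruvate, was higher in the base (-0.57, adjusted p = 0.0034), and so was Eno1 (-0.47, adjusted p = 0.00021). Eno2, the enolase of neurons, was higher in the apex (1.48, adjusted p = 0.0035), as was Aldoc (0.62, adjusted p = 0.0011). Gapdh was thus among the 4 glycolytic genes that were not called. The median of the family was below 0 in 9 of 10 scalings and 0.10 when scaled to Actb, which called 6 higher in apex and 0 in base. The spiral ganglion neuron list, with 5 of 6 genes higher in apical samples, had a summed signal from 32800 to 42380 there, from 31600 to 56490 in middle samples and from 6156 to 27900 in basal samples, with all 6 genes well above background, and its part in the Eno2 result was not tested.

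Of 12 actins and proteins that bind actin monomers, 7 were higher in the base and 2 in the apex (median -0.33). Acta2, the smooth muscle actin, differed most (-1.21, adjusted p = 9.5e-07), followed by Acta1 (-0.93, adjusted p = 0.00044), and Pfn2 (0.75, adjusted p = 0.0024) and Tmsb10 (0.72, adjusted p = 8.2e-06), which bind actin monomers, were higher in the apex. This median, too, was above 0 when scaled to Actb, at 0.05, with 4 genes called higher in apex and 2 in base. The gene whose signal was most like that of Actb over the 12 arrays was Actg1, the other cytoplasmic actin (Pearson r = 0.989), with a difference of -0.43 between apex and base. The Actb probe at position 305 shares a run of 43 bases with the Actg1 probe at position 309. The part of shared sequence in this likeness was not tested.

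Of 14 MHC class I and antigen loading genes, B2m included, 8 were higher in the base and none in the apex (median -0.42, and below 0 in all 10 scalings). The count higher in the base ran from 2 when scaled to Actb, with 2 higher in the apex, to 14 with median and spike-in scaling. H2-T23 (-0.82, adjusted p = 0.0042) and the heavy chain gene H2-K1 (-0.69, adjusted p = 0.0021) led them, and H2-K1 was also the gene most like B2m over the 12 arrays (r = 0.973). The heavy chains and B2m form 1 complex at the cell surface.

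The TFIID subunits parted more than Tbp did. Of 14, 5 were higher in the base and 2 in the apex, among them Taf13 (-0.85, adjusted p = 4.5e-06) and Taf10 (-0.60, adjusted p = 0.00014) against Taf7 (0.40, adjusted p = 0.04) and Taf1 (0.20, adjusted p = 0.023). Of 13 cyclophilins, 5 were higher in the base, with Ppia, Ppil1 (-0.34, adjusted p = 0.00057) and Ppib of the endoplasmic reticulum (-0.31, adjusted p = 0.0035), and Ppil4 (0.21, adjusted p = 0.039) and Ppwd1 (0.18, adjusted p = 0.031) were higher in the apex. The 7 genes of 14-3-3 proteins held Ywhag (1.08, adjusted p = 0.0013) and Ywhah (0.56, adjusted p = 0.016) higher in the apex with Ywhaz, and Ywhaq (-0.39, adjusted p = 0.00028) and Ywhab (-0.20, adjusted p = 0.012) higher in the base. The medians of these 3 families were -0.06, -0.15 and -0.08 and changed sign with the scaling, up to 0.33, 0.24 and 0.30 when scaled to Actb. For the TFIID subunits, median scaling called 0 higher in apex and 8 in base, and Actb 9 and 2. For the cyclophilins these counts were 0 and 7 with median scaling and 7 and 0 with Actb, and for the 14-3-3 genes 2 and 4 and 5 and 0.

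Of 31 other genes in common use as references, 15 were higher in the base, 1 was higher in the apex and 15 were not called (median -0.16, and 0.22 when scaled to Actb, which called 17 higher in apex and 0 in base). Rer1 was among the former (-0.45, adjusted p = 0.00089). Tubb2a, a beta-tubulin, was the gene higher in the apex (1.06, adjusted p = 3.7e-05).

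The other genes most like a reference gene over the 12 arrays were Itgb1bp1 for Ppia (r = 0.991), Phb for Pgk1 (0.988), Btg1 for Ywhaz (0.965), Rpl5 for Rpl30 (0.959), Calu for Ipo8 (0.953), Psmf1 for Gapdh (0.937) and Stap1 for Tbp (0.884). The arrays of a turn share a slide, and a gene that steps between turns has many others like it. Ppia had 1405 genes with r over 0.9, Actb 1165 and Pgk1 911, while Ywhaz had 51, B2m 52, Ipo8 17, Rpl30 12, Gapdh 5 and Tbp 0.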

How the data were processed

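RNA of the 3 cochlear turns was labeled with Cy3 from 25 ng of total RNA per array and hybridized by the authors to mouse exon arrays. The deposited files hold fluorescence intensity per spot, made by the authors with Agilent Feature Extraction 10.7.3.1, which subtracted the background and did not normalize between arrays. The deposited value table held the same intensities. Of 180880 spots, 7914 controls and spots carrying a non-uniformity or outlier flag on at least 1 array were left out, which removed 119 of 165984 probes. Signals were scaled to the 75th percentile of each array, as in the study, log2 transformed, and averaged over spots, probes and gene names, with no pseudocount. Turns were compared in limma 3.58.1 (R 4.3.3; lmFit and eBayes over all 12 arrays, Benjamini-Hochberg over all genes, or over all probes). The p-values set the difference between turns against the spread of these arrays within turns, and the number of arrays limits the precision. As each turn lies on 1 slide, they do not take in the spread between slides. M is the mean SD of the log2 ratios of a gene to the other 8, or to the others of the 4 qPCR controls where stated. Groups came from the labels. Probe positions are those of the files (mm9, NCBI build 37), and no genome of that build was used here. The fits were tested on simulated data. The 9 genes, gene lists, marker lists and tests were chosen with earlier results of these data known. Named are the 9 genes, the gene most like each over the arrays, and from each family the called genes with the largest difference between apex and base, up to 2 in each direction. Some items that this rule names are not reported here. The alternatives changed the scaling (quantile, median, 75th percentile of bright probes, spike-in probes, none, 4 qPCR controls, 9 genes, Gapdh, Actb), background correction (normexp, offset 50), source of values, summary of probes, filters, pseudocount (16), grouping by transcript, test, samples and sample number as a block. Added after seeing the data were Gapdh without its probe on chromosome 8, and only the first or only the last probe of each gene.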

Additional observations from a re-analysis of the deposited data

Results flagged for a closer look

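In the apex, 1 of the 4 arrays, at a Tbp signal of 250.7, lay apart from the others (240.0 to 241.7). The gap to the nearest array was 0.83 of the whole range, just above the critical value of Dixon's test for 4 values. The 9 genes and 3 turns gave 27 such groups, and chance flags about 1 in 20.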

How the results depend on the processing

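Of 966 recomputed differences of the 9 genes over 3 comparisons and all alternatives, 848 kept their side of the threshold, 60 lost a call, 48 gained one and 10 changed direction with a call on at least 1 side. A further 39, among those kept, changed sign with no call on either side. Some of those kept could not have changed, such as the ones from the deposited value table, which held the same intensities. The 10 changes of direction with a call, as log2 differences between apex and base unless stated, were Rpl30 at -0.33 and Ywhaz at -0.30 with spike-in scaling, Tbp at 0.18 when scaled to the 9 genes, Gapdh at 0.32, Ipo8 at 0.28 and Tbp at 0.38 when scaled to Actb, with Tbp at 0.18 and Ppia at 0.033 between middle turn and base, Gapdh at 0.18 with quantile normalization, and Ywhaz at -0.036 with only the last probe. In the main processing 5 of 9 genes were called in any comparison, against 43.4% of all genes, 9 with spike-in scaling and 3 with none, and 5 of 9 intervals lay within 2-fold with spike-in scaling. Genes called between apex and base, 7645 of 19505 in the main processing, were 15109 with spike-in scaling, 13243 with Actb, 3611 with no scaling and 4464 with only the first probe. Between apex and middle turn, 2346 became 7930 with spike-in, 3542 with median, 334 with no, 1555 with qPCR control and 1022 with Gapdh scaling, 651 with only the first and 1550 with only the last probe. Between middle turn and base, 4070 became 7328 with spike-in, 10189 with Actb and 1569 with no scaling, and 1528 with only the first probe. Genes past the F test and 2-fold, 915 in the main processing, were 1564 with spike-in scaling, 1536 with Actb, 331 with normexp and 602 with 16 added. The cause was not tested, except that fewer probes entered with only the first or last probe. Leaving out 1 array gave 6494 to 7677 genes between apex and base, 965 (without apex array 2) to 3536 (without middle array 3) between apex and middle turn, 2656 (without base array 2) to 4755 between middle turn and base, 772 to 1087 past the F test and 2-fold, 5 to 6 called reference genes and 8 to 9 intervals within 2-fold.

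Samples with the same number correlated over 0.1 in 6 of 12 pairs (-0.0367 to 0.227). Their mean r was 0.0949, against -0.0313 over the 36 pairs with other numbers. The sample number also equalled the position on the slide on 12 of 12 arrays, so a shared mouse and a shared position cannot be told apart. These values therefore do not show pairing. In the fit with numbers as a replicate block, 8167, 3322 and 5060 genes were called between apex and base, apex and middle turn, and middle turn and base, 919 passed the F test and 2-fold, 6 reference genes were called in any comparison, with Rpl30 added between apex and base (adjusted p = 0.0363), Actb was added between apex and middle turn (adjusted p = 0.0328), and all 9 intervals lay within 2-fold.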
